A study of Mus musculus with 9 samples.

Results

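The livers of mice given AdipoRonPEG5 were compared with the livers of mice given its parent compound, AdipoRon. The comparison used 6 of the 9 RNA libraries of the study, 3 for each compound, taken by their treatment label, and every gene with enough counts was tested, 13151 of 35275 entries. AdipoRon is a small molecule that activates the adiponectin receptors, and AdipoRonPEG5 is, by its label, a PEGylated form of it, that is, AdipoRon joined to a chain of polyethylene glycol. All libraries are liver RNA of C57BL/6 mice injected 2 times a day for 5 days. A dose of 5 mg/kg is stated for both compounds but also for PBS, the vehicle given to the controls, so the dose is taken here as stated and not as certain. If the masses were equal, the heavier PEGylated molecule was given as fewer molecules. The age, sex and diet of the mice, the route of injection and whether each library came from its own mouse are not in the sources used here, so p-values measure the spread between these libraries, which may be technical. The 3 vehicle libraries entered the fit to share the estimate of spread, and their levels are printed beside those of the compounds.

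Adiponectin, a hormone of fat tissue, acts on the liver through the receptors AdipoR1 and AdipoR2, which are known to raise AMPK activity, PPAR-alpha activity and the breakdown of ceramides. The liver also clears foreign compounds: cytochromes P450 oxidize them, glutathione transferases and glucuronosyltransferases attach polar groups, and ABC transporters pump the products out. NRF2, a transcription factor normally held inactive by KEAP1, is known for driving many glutathione transferase, thioredoxin and carbonyl reductase genes when cells meet electrophiles.

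The tissue label was checked against 20 hepatocyte identity genes, all of which were tested. Their summed level lay between 99000 and 111400 CPM (counts scaled by TMM to a common library size, the usual CPM) in the 6 libraries. Library totals were 14320743 to 18508950 counts for the compounds and up to 39473195 for vehicle. On the first principal component, which held 40.0% of the variance of all 9 libraries, the AdipoRon libraries (-5.12 to 6.31) lay between vehicle (-36.85 to -28.46) and AdipoRonPEG5 (29.84 to 34.50).

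With AdipoRonPEG5, 352 genes (2.68% of those tested) were higher and 357 (2.71%) lower than with AdipoRon at an edgeR Benjamini-Hochberg adjusted p of 0.05, 709 in all (5.39%). Differences are given throughout as log2 of AdipoRonPEG5 over AdipoRon, so a positive value means more RNA with the PEGylated compound. Most called differences were small: 395 of the 709 were under 1.5-fold, and 84 of the higher and 68 of the lower genes reached 2-fold. In 707 of the 709 the AdipoRon and AdipoRonPEG5 libraries did not overlap, as in 28.2% of all genes tested. The largest rise was in the glutathione transferase Gsta1 and the large falls include a major urinary protein gene, Mup9, the drug-oxidizing P450 gene Cyp3a11 and the fatty acid desaturase gene Scd1. The median difference of all genes tested was -0.01. The 95% confidence interval of the difference stayed within 1.5-fold in either direction for 7553 genes (57.4%) and within 2-fold for 10754 genes (81.8%). Read against vehicle in the same fit, 2260 genes (17.2%) were called with AdipoRonPEG5 and 684 (5.20%) with AdipoRon; these comparisons share libraries with each other and with the one described here, so their values are set side by side and not counted as separate support.

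**Figure D1:**
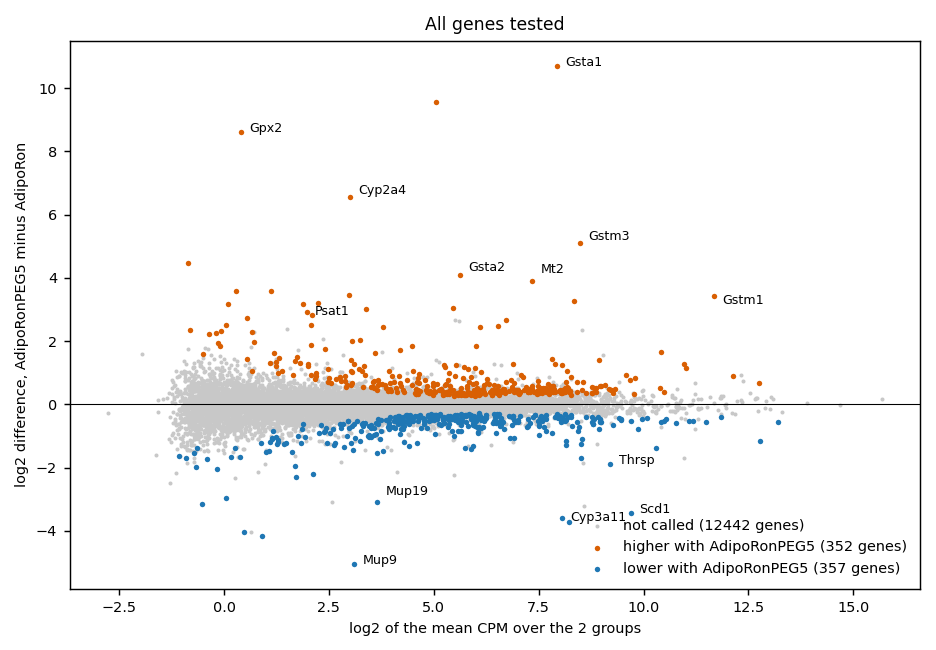
Difference between the compounds for every gene tested (y axis, log2 of AdipoRonPEG5 over AdipoRon) against its mean level in the AdipoRon and AdipoRonPEG5 groups (x axis, log2 CPM). Each point is a gene; orange points are the 352 called higher and blue points the 357 called lower, and Gsta1 stands at 10.71 and Scd1 at -3.42.

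The number of calls changed with the library left out. Without any one of the 6 compared libraries, between 135 and 208 genes were called higher and between 98 and 207 lower, with 2 libraries left in that arm. Without vehicle 3 the counts were 551 and 481, and 163 of the 709 calls (23.0%) held in every alternative run. Gene length moved with the difference: in the 3289 shortest genes (up to 1905 bases), 194 were higher and 63 lower, with a median of 0.08, and in the 3288 longest (4451 bases and more) 26 were higher and 127 lower, with a median of -0.09. With that trend removed, 247 genes were higher and 262 lower, and 477 of the 709 calls (67.3%) remained. The plot of calls by gene length shows both counts.

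**Figure D2:**
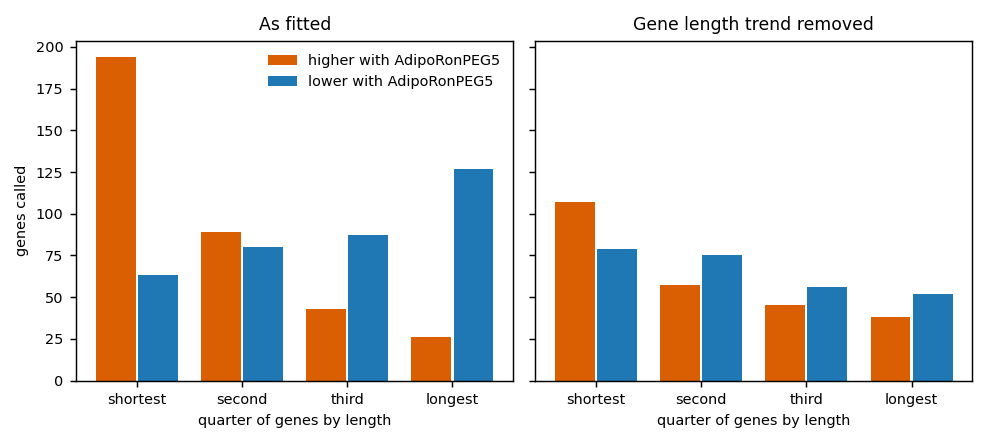
Genes called higher (orange) or lower (blue) with AdipoRonPEG5, in 4 classes of gene length with about equal numbers of genes, as fitted (left) and after removing the length trend from each library (right). In the shortest class the counts go from 194 and 63 to 107 and 79, and in the longest from 26 and 127 to 38 and 52.

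Many glutathione transferase genes rose. These enzymes join glutathione to electrophilic molecules. Of 21 tested members, 10 rose, 1 fell and 10 did not pass, with a median difference of 0.72. The alpha and mu classes held 7 of the 10 rises. Gsta1 was at 0.432, 0.111 and 0.342 CPM in the AdipoRon libraries and at 504, 437 and 532 CPM in the AdipoRonPEG5 libraries, against 0.540, 0.224 and 0.0744 CPM with vehicle. In raw reads this is 14 counts over the AdipoRon group and 25226 over the AdipoRonPEG5 group, a depth-corrected ratio of 1685 (95% interval 1004 to 3083, counting error only). The gene was thus near the detection floor in all 6 libraries of vehicle and AdipoRon and abundant in every AdipoRonPEG5 library (difference 10.71 ± 0.304 (SE), adjusted p = 1.71e-08). Gstm3, of the mu class, was at 23.3, 17.3 and 19.96 CPM with AdipoRon and 747, 683 and 659 CPM with AdipoRonPEG5 (5.11 ± 0.155, adjusted p = 1.75e-08). In Gstm3 the parent compound also moved the gene, from 9.89 CPM with vehicle to 20.2 CPM (log2 1.01, adjusted p = 0.00452), so the PEGylated form went 34.6-fold beyond a level that AdipoRon had already raised. Gstm1, a mu class enzyme that was already abundant, went from 592, 433 and 637 CPM to 5821, 5756 and 6441 CPM (3.44 ± 0.203, adjusted p = 7.61e-06), while AdipoRon differed from vehicle by 0.08 on the log2 scale (adjusted p = 0.840). Gstm2 rose by 2.48 ± 0.141 (adjusted p = 5.94e-06) and Gsta2 by 4.10 ± 0.412 (adjusted p = 0.000527), with no overlap between the groups in either.

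Levels per length place these changes on the scale of the liver. With AdipoRonPEG5 the mean FPKM (fragments scaled by gene length and library size, as deposited) was 4725 for Gstm1, 569 for Gsta1 and 539 for Gstm3, against 441, 0.347 and 15.8 with AdipoRon. Gsta3 and Gstp1, which are among the most abundant members with AdipoRon (623 and 2516 FPKM) and were chosen for naming after their values were seen, did not pass: Gsta3 differed by -0.21 (95% confidence interval -0.60 to 0.18) and Gstp1 by 0.67 (-0.09 to 1.44). The summed level of the 22 listed members was 7509 to 7608 CPM with AdipoRon, 15540 to 16640 CPM with AdipoRonPEG5 and 7367 to 8121 CPM with vehicle. Of the 11 calls, 9 held in every alternative; Gstk1, the member that fell, lost its call without vehicle 2, AdipoRon 1, AdipoRon 3 or any AdipoRonPEG5 library (adjusted p from 0.0665 to 0.129), and Gsto1 without AdipoRon 1, AdipoRon 2, AdipoRonPEG5 2 or AdipoRonPEG5 3 (0.0587 to 0.0765); both were chosen after their values were seen. Gsta1 and Gsta2, and the mu class genes among themselves, are close paralogs, and the sources used here do not say how reads that match more than one of them were assigned.

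Other genes known as NRF2 targets rose beside them. Of 23 tested, 10 rose, 0 fell and 13 did not pass, with a median of 0.37, and 8 of the 10 held in every alternative. Prdx1, a peroxiredoxin that removes hydrogen peroxide, was at 622, 646 and 650 CPM with AdipoRon and 1145, 1161 and 1124 CPM with AdipoRonPEG5 (0.84 ± 0.0801, adjusted p = 0.000430), against 638 to 697 CPM with vehicle. Cbr3, a carbonyl reductase, was at 0.802, 0.778 and 0.615 CPM against 5.43, 7.01 and 7.65 CPM (3.18 ± 0.258, adjusted p = 0.000124). The libraries of a group lay close together in both genes, and the groups were far apart. Txn1, the cytosolic thioredoxin, rose by 0.71 ± 0.0714 (adjusted p = 0.000527) and Htatip2, an oxidoreductase, by 1.25 ± 0.116 (adjusted p = 0.000357). Gpx2, a glutathione peroxidase best known from the gut epithelium, had 0 counts over the AdipoRon group and 136 over the AdipoRonPEG5 group (2.34, 2.60 and 2.96 CPM), which is at least 42.4-fold higher when the AdipoRon group is set to a floor of 3 counts. Several textbook targets did not pass: Gclc and Gclm, which encode the enzyme that makes the glutathione precursor, and Hmox1 and Txnrd1 had differences of 0.29, 0.27, 0.33 and 0.14. Nqo1, another well-known target, was called higher (1.39). Its call ended without vehicle 2 or any one of the 6 compared libraries (adjusted p from 0.0557 to 0.124). Cbr1, Ephx1, Akr1b8 and Srxn1 rose by 1.27, 1.40, 1.44 and 0.99, and their calls held in every alternative. The RNA of Nfe2l2, which encodes NRF2, differed by -0.14 (95% confidence interval -0.35 to 0.07) and that of Keap1 by 0.07 (-0.08 to 0.23). Gclc and all genes named after it in this paragraph were chosen for naming after their values were seen.

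A pair of efflux transporter genes rose. Of 12 tested, 2 rose and 1 fell (25% called, beside 5.39% of all genes). Abcc4, which exports conjugates and bile acids into the blood, was at 1.30, 1.44 and 0.957 CPM with AdipoRon and 7.22, 6.18 and 7.95 CPM with AdipoRonPEG5 (2.51 ± 0.222, adjusted p = 0.000252). Abcc12, a related carrier, was at 0.370, 0.167 and 0.478 CPM against 3.58, 4.78 and 3.76 CPM (3.59 ± 0.351, adjusted p = 0.000507). Both stood apart from AdipoRon in every library. Abcc5 went the other way (-0.54 ± 0.136, adjusted p = 0.0457): it was at 6.03 CPM with vehicle, 10.7 CPM with AdipoRon and 7.37 CPM with AdipoRonPEG5, but its call ended without vehicle 1, vehicle 2 or any one of the 6 compared libraries (adjusted p from 0.0566 to 0.140).

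Upstream sequences of Gsta1, the gene with the largest rise, and of Prdx1 and Abcc4, which hold the core letters of an antioxidant response element, the site that NRF2 is known to bind, are shown 5′ to 3′. They come from RefSeq (GRCm38.p6), begin 250 bases before the annotated start and stop before the first annotated exon. Capitals mark TGACNNNGC on either strand.
Gsta1, chr9:78230419-78230655, plus strand: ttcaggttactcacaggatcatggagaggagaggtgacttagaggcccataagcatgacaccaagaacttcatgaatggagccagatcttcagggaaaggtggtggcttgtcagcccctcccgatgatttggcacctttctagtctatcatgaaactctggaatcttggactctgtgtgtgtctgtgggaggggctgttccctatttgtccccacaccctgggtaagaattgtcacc
Prdx1, chr4:116685349-116685543, plus strand: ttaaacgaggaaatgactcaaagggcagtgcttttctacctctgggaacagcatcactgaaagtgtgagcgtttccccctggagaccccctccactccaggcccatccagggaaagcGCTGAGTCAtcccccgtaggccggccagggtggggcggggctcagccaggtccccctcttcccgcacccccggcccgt
Abcc4, chr14:118706220-118706469, minus strand: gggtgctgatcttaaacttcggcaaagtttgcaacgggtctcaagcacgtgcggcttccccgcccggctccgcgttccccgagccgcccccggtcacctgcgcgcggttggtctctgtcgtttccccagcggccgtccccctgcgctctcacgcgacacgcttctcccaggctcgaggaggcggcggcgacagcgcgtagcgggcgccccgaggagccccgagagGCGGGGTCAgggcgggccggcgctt
In Prdx1 the letters lie from -133 to -125 and in Abcc4 from -25 to -17, counted from the start. The second annotated start of Abcc4 also has them. The Gsta1 stretch holds none. Among the glutathione transferases and other NRF2 targets that rose, 19 of 20 were found in the RefSeq table and 2 (Htatip2 and Prdx1) hold TGACNNNGC within 250 bases before a start. Among members that did not pass, 19 of 23 were found and 9 hold it. The genes that rose have 22 starts and those that did not pass 29, and a gene counts if any start matches. Of all 32851 promoters, counted singly, 10.2% hold the letters. A match is a match of letters only, and its absence says only that the letters are not in this window.

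**Figure D3:**
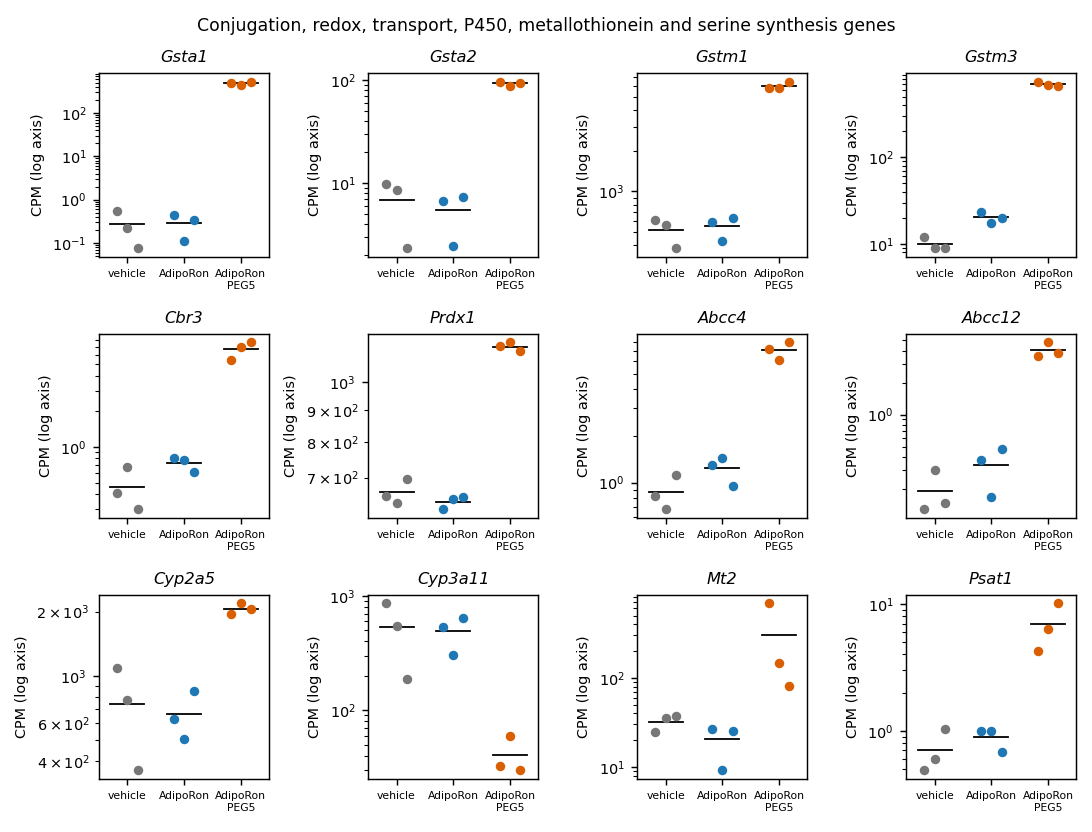
Levels of 12 genes in the 9 libraries (CPM, log axes that differ between panels). Each point is a library, grey for vehicle, blue for AdipoRon and orange for AdipoRonPEG5, and the bar is the group mean. Gsta1, Gstm3, Prdx1 and Abcc4 are higher in all 3 AdipoRonPEG5 libraries than in any other, Cyp3a11 is lower in all 3, and Mt2 spreads from 80.1 to 685 CPM with AdipoRonPEG5.

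Cytochromes P450 changed in both directions. Of 28 tested, 4 rose, 1 fell and 23 did not pass (17.9% called, beside 5.39% of all genes), with a median of 0.00. Cyp3a11, the major mouse P450 for many drugs and a classic target of the pregnane X receptor, was at 529, 306 and 642 CPM with AdipoRon and 32.7, 59.3 and 29.8 CPM with AdipoRonPEG5, a fall of 12.1-fold (-3.60 ± 0.513, adjusted p = 0.00461). Vehicle livers were at 861, 543 and 186 CPM, so AdipoRon stayed within the vehicle range and all 3 AdipoRonPEG5 libraries lay below it. Cyp1a2, which oxidizes caffeine and aromatic amines, was at 495, 697 and 605 CPM against 1033, 983 and 1084 CPM (0.79 ± 0.131, adjusted p = 0.00932). Cyp2a5, the coumarin hydroxylase, was at 628, 505 and 850 CPM against 1943, 2187 and 2062 CPM (1.64 ± 0.322, adjusted p = 0.0183), and its call ended without AdipoRon 1, AdipoRon 2, AdipoRonPEG5 2 or AdipoRonPEG5 3 (adjusted p between 0.0560 and 0.0654). Cyp2a4, a near copy of it whose reads cannot be told apart with certainty, had 8 counts over the AdipoRon group and 876 over the AdipoRonPEG5 group, with 8.58, 34.7 and 4.25 CPM in the latter. Its difference of 6.54 ± 0.981 (adjusted p = 0.00582) was 5.22 without AdipoRonPEG5 2 and 7.94 without AdipoRon 3, and limma-voom did not call it (adjusted p = 0.110). The list count of 4 rises was 2 without AdipoRon 1, AdipoRon 2, AdipoRonPEG5 2 or AdipoRonPEG5 3. None of the 6 xenobiotic receptor genes tested passed; the one with the lowest p, Nr1i2, which encodes the pregnane X receptor, was at 118 to 136 CPM with AdipoRon and 108 to 115 CPM with AdipoRonPEG5 (-0.22 ± 0.0814, adjusted p = 0.141).

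Some genes of glucuronic acid conjugation rose. Of 15 glucuronosyl- and sulfotransferase genes tested, 4 rose and 1 fell, and 3 of the rises held in every alternative. Ugt2b5 was at 499, 540.5 and 535 CPM with AdipoRon and 943, 1042 and 1019 CPM with AdipoRonPEG5 (0.93 ± 0.128, adjusted p = 0.00392). Ugt2b35 rose by 0.80 ± 0.137 (adjusted p = 0.0102) and Ugt2b34 by 0.61 ± 0.0886 (adjusted p = 0.00513). Ugt2b37, which was outside the list, was among the largest rises, from 0.370, 2.56 and 0.888 CPM to 16.5, 10.95 and 16.0 CPM (3.46 ± 0.561, adjusted p = 0.00865; 4.54 without AdipoRon 2). Sult1d1, a sulfotransferase, fell by 0.67 (adjusted p = 0.0228), a call that ended without AdipoRon 1, AdipoRon 3 or any AdipoRonPEG5 library (adjusted p from 0.0580 to 0.0842). The Ugt2b genes are close paralogs, with the same limit on read assignment.

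Metallothioneins, small proteins that bind zinc and other metals, were higher with AdipoRonPEG5 but spread widely. Mt2 was at 27.0, 9.22 and 25.1 CPM with AdipoRon and 685, 148 and 80.1 CPM with AdipoRonPEG5 (3.90 ± 0.721, adjusted p = 0.0145). Mt1 was at 76.3, 34.8 and 72.7 CPM against 1273, 320 and 186 CPM (3.28 ± 0.614, adjusted p = 0.0149), with vehicle at 112 to 161 CPM. AdipoRonPEG5 1 held by far the highest level of both; without it the differences were 2.49 and 2.05 (adjusted p = 0.0151 for both), still called. The same library had the highest summed level of the 23 acute phase and metallothionein genes among the compound libraries, 43970 CPM against 20550 to 27150 CPM in the other 5, and 58710 CPM was reached in vehicle 3. Both calls ended with a robust prior in edgeR (adjusted p = 0.0770 for Mt1 and 0.0756 for Mt2), and that of Mt1 also without AdipoRon 3 (adjusted p = 0.0513). No other gene of that list passed with all libraries, 7 of the 23 were called without vehicle 3 and 1 without AdipoRon 3. The upstream sequences of Mt2 and Mt1 from RefSeq (GRCm38.p6) follow, since these neighbours moved together, with the core letters of the metal response element, TGCACNC or TGCGCNC on either strand, in capitals.
Mt2, chr8:94172368-94172617, plus strand: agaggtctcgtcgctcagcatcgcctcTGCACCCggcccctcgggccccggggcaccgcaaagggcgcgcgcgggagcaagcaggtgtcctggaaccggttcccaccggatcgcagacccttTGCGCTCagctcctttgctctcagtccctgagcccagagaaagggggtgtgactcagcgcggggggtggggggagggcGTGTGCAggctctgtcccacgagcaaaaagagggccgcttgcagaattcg
Mt1, chr8:94178839-94179081, plus strand: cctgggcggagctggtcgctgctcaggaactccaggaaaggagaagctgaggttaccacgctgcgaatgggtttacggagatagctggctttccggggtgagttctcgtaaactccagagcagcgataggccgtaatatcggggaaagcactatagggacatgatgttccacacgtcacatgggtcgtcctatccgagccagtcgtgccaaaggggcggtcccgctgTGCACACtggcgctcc
In these stretches Mt2 holds 3 such matches, starting at -223, -128 and -50, and Mt1 holds 1, at -23. Letters outside the 250 bases before the annotated start were not counted, so these are not the full numbers of matches for either gene. The Mt2 stretch also overlaps an annotated exon of another gene, Gm45774. Of all promoters in the table, 21.4% hold at least 1 match within 250 bases.

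Genes of serine synthesis and of the ATF4 stress program changed in part. Of 17 tested, 4 rose and 1 fell (29.4% called, beside 5.39% of all genes). The count of rises was 1 without AdipoRon 1 or AdipoRon 3 and 2 without AdipoRon 2, AdipoRonPEG5 2 or AdipoRonPEG5 3. Psat1, an aminotransferase of serine synthesis, was at 0.987, 0.9998 and 0.683 CPM with AdipoRon and 4.26, 6.38 and 10.1 CPM with AdipoRonPEG5 (2.94 ± 0.367, adjusted p = 0.00234), and its call held in every alternative. Phgdh, the first enzyme of the same path, had 9 counts against 49 (2.34 ± 0.522, adjusted p = 0.0285), a call that ended without any one of the 6 libraries (adjusted p from 0.0556 to 0.0947). Aldh1l2, a mitochondrial folate enzyme, had 15 counts against 91. Its difference was 2.502 ± 0.485 (adjusted p = 0.0174), and its call ended without AdipoRon 1, AdipoRon 3, AdipoRonPEG5 2 or AdipoRonPEG5 3 (adjusted p between 0.0553 and 0.0621). Atf4 itself differed by 0.19 (95% confidence interval -0.03 to 0.42), and Trib3 and Chac1, well-known ATF4 targets, by -0.42 and -0.57, without passing; these 3 were chosen after their values were seen. Atf3, a stress-induced transcription factor, was at 2.59, 2.96 and 16.8 CPM with AdipoRonPEG5 against 0.752 to 1.30 CPM. Its difference of 2.82 (adjusted p = 0.0413) was 1.42 without AdipoRonPEG5 3, and the call ended without vehicle 2 or any AdipoRon library (adjusted p from 0.0610 to 0.122). Jun, a component of the AP-1 factor, ran from 12.8 to 141 CPM across the AdipoRonPEG5 libraries against 7.78 to 10.9 CPM with AdipoRon. Its call (3.06 ± 0.627, adjusted p = 0.0218) ended without any AdipoRon library, AdipoRonPEG5 2 or AdipoRonPEG5 3 (adjusted p between 0.0606 and 0.0703), and its difference was 2.35 without AdipoRonPEG5 3.

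Several genes of fatty acid synthesis fell. Of 24 tested genes of fatty acid and triglyceride synthesis, 0 rose, 11 fell and 13 did not pass, with a median of -0.61. Scd1, which introduces the double bond of oleate, was at 1977, 800 and 1763 CPM with AdipoRon and 88.7, 200 and 134 CPM with AdipoRonPEG5, a fall of 10.7-fold (-3.42 ± 0.384, adjusted p = 0.00109). Vehicle livers held 630 to 1092 CPM, below the AdipoRon mean of 1514 CPM. AdipoRon was above vehicle by 0.87 on the log2 scale without passing (adjusted p = 0.179), while AdipoRonPEG5 was called below it (-2.56, adjusted p = 0.00153). Thrsp, a regulator of lipogenesis, was at 913, 898 and 989 CPM against 220.5, 283 and 253 CPM (-1.89 ± 0.106, adjusted p = 5.94e-06), and the libraries of each group lay close together. Elovl6, the elongase that makes stearate, was at 109, 76.5 and 73.6 CPM against 32.7, 30.4 and 33.9 CPM (-1.42 ± 0.145, adjusted p = 0.000600). Acaca, the acetyl-CoA carboxylase of the liver cytosol, was at 122, 134 and 94.9 CPM against 53.4, 61.5 and 74.5 CPM (-0.89 ± 0.150, adjusted p = 0.00985). These 4 calls held in every alternative, while the count of falls in the list was 7 without vehicle 2 or AdipoRon 3, 6 without AdipoRonPEG5 1 and 4 without AdipoRonPEG5 2. Lpin1, which makes diacylglycerol, fell by 1.70 (adjusted p = 0.0216), but its call ended without AdipoRon 1, AdipoRonPEG5 1 or AdipoRonPEG5 2 (adjusted p between 0.0580 and 0.0892). Acly and Fasn, the enzymes before and after Acaca, were at -1.30 and -1.16 and were called unless AdipoRonPEG5 2 was left out (adjusted p = 0.0540 and 0.0600). Srebf1, the insulin-responsive regulator of the path, was at -0.60 (adjusted p = 0.0553). The last 3 genes were chosen for naming after their values were seen. Cfd, an adipose marker, had 138 counts over the AdipoRon group and 9 over the AdipoRonPEG5 group, without passing (-4.03, adjusted p = 0.0872). The 8 listed adipose genes summed to 15.5 to 39.9 CPM with AdipoRon and 9.62 to 15.4 CPM with AdipoRonPEG5, and Lep, which encodes leptin, had 0 counts in the 6 libraries. The part of adipose RNA in the falls was not tested.

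Some genes of sugar use fell as well. Glycolysis and glycogen metabolism held 22 tested genes, of which 5 were lower, 1 higher and 16 not called. Pklr, the liver pyruvate kinase, was at 492, 506 and 550 CPM with AdipoRon and 179, 213 and 254 CPM with AdipoRonPEG5 (-1.26 ± 0.132, adjusted p = 0.000654). Vehicle lay between the compounds, at 268 to 332 CPM: AdipoRon was called above it (0.74, adjusted p = 0.0108) and AdipoRonPEG5 below it (-0.52, adjusted p = 0.0212). Khk, the fructose kinase, fell by 0.65 (adjusted p = 0.00622) and Pygl, the glycogen phosphorylase, by 0.57 (adjusted p = 0.0102). The calls of Pklr, Khk and Pygl held in every alternative. Of 24 cholesterol synthesis genes 1 was called lower (4.17%, near the 5.39% of all genes called), and the median was -0.04. That gene was Insig1, which restrains the processing of SREBP (-0.84 ± 0.210, adjusted p = 0.0442). The call of Insig1 ended without vehicle 2, AdipoRon 1 or any AdipoRonPEG5 library (adjusted p from 0.0690 to 0.142), and no gene of that list was called with the length trend removed. None of 23 lipoprotein and lipase genes passed, and 19 of them had intervals within 1.5-fold.

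**Figure D4:**
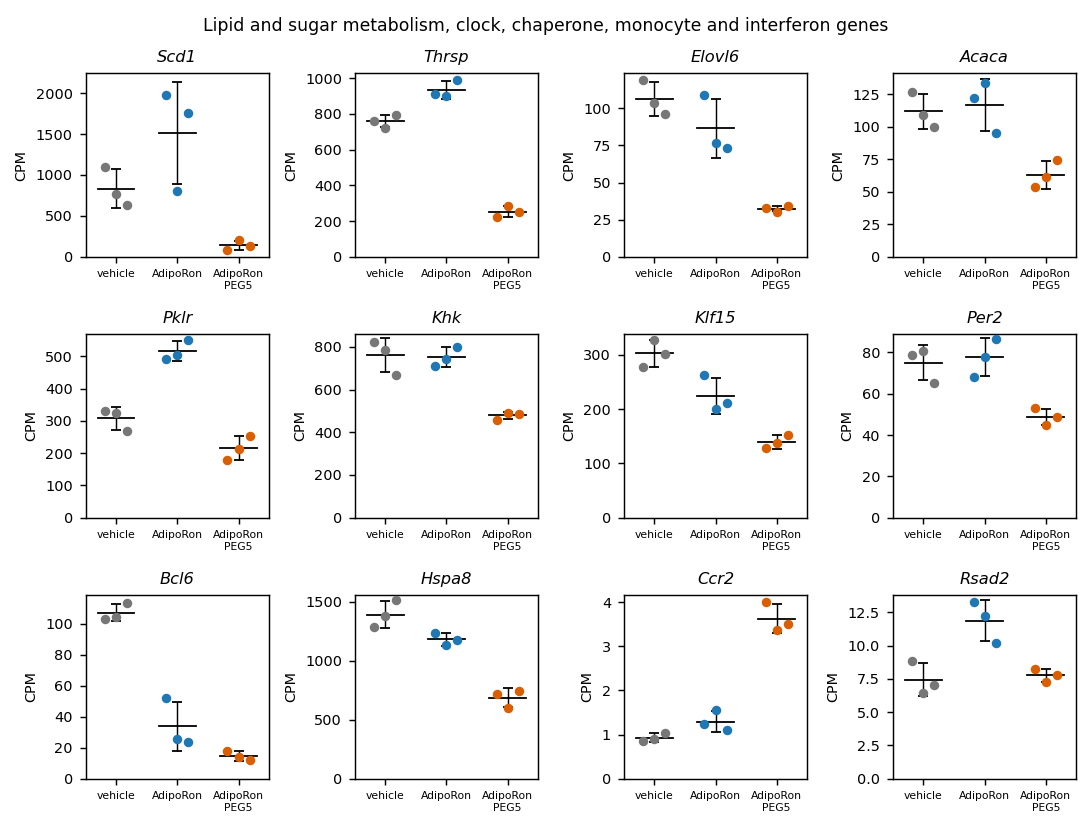
Levels of 12 genes in the 9 libraries (CPM, linear axes from 0). Each point is a library, grey for vehicle, blue for AdipoRon and orange for AdipoRonPEG5; the bar is the group mean and the error bar 1 SD of 3 libraries. Scd1, Thrsp, Elovl6, Acaca, Pklr and Khk are lowest in the 3 AdipoRonPEG5 libraries, Bcl6 is already low with AdipoRon, and Rsad2 is highest with AdipoRon.

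Some genes of glucose output and amino acid breakdown fell, by smaller amounts. Gluconeogenesis held 18 tested genes, of which 5 were lower, 1 higher and 12 not called, with a median of -0.34. The count of falls was 3 without AdipoRon 2 or AdipoRonPEG5 3, 2 without vehicle 2 or AdipoRon 1, and 1 without AdipoRon 3, AdipoRonPEG5 1 or AdipoRonPEG5 2. Klf15, a transcription factor that drives amino acid use for glucose, was at 263, 200 and 211 CPM with AdipoRon and 128, 137 and 153 CPM with AdipoRonPEG5 (-0.69 ± 0.117, adjusted p = 0.01001). Pck2, the mitochondrial form of the key enzyme PEPCK, rose from 7.03, 5.39 and 5.26 CPM to 12.3, 11.1 and 14.8 CPM (1.11 ± 0.155, adjusted p = 0.00407). Both calls held in every alternative. Fbp1, fructose bisphosphatase, fell by 0.52 (adjusted p = 0.0169), a call lost without AdipoRon 1, AdipoRon 3, AdipoRonPEG5 1 or AdipoRonPEG5 2 (adjusted p between 0.0554 and 0.0696). Among 24 genes of amino acid breakdown and the urea cycle, 7 were lower, 0 higher and 17 not called, with a median of -0.35. That count was 3 without AdipoRonPEG5 2, 2 without AdipoRon 1, AdipoRonPEG5 1 or AdipoRonPEG5 3, and 1 without AdipoRon 3. The 7 include Prodh, which starts proline breakdown (-0.52 ± 0.0952, adjusted p = 0.0142), Gldc of the glycine cleavage system (-0.65 ± 0.128, adjusted p = 0.0187) and Cps1, the entry enzyme of the urea cycle, at 3800, 3257 and 3202 CPM against 2068, 2310 and 2639 CPM (-0.55 ± 0.117, adjusted p = 0.0238). None of the 7 held in every alternative. The call of Prodh ended without AdipoRon 3 or AdipoRonPEG5 3 (adjusted p up to 0.0561), that of Gldc without AdipoRon 1 or AdipoRon 3 (up to 0.0588), and that of Cps1 without AdipoRon 1, AdipoRon 3, AdipoRonPEG5 1 or AdipoRonPEG5 2 (up to 0.0962). Of 20 bile acid genes 2 fell, a share of 10% beside the 5.39% of all genes called. The count was 3 without vehicle 3, and 1 without AdipoRon 1, AdipoRon 3 or any AdipoRonPEG5 library. The export pump Abcb11 was at 361, 325 and 311 CPM against 226, 245 and 237 CPM (-0.50 ± 0.0850, adjusted p = 0.0104) and held in every alternative. The uptake carrier Slc10a1 (-0.55 ± 0.118, adjusted p = 0.0248) was lost without AdipoRon 1, AdipoRon 3 or any AdipoRonPEG5 library (adjusted p from 0.0543 to 0.105).

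Some clock genes fell. Of 18 tested, 0 rose, 6 fell and 12 did not pass (33.3% called, beside 5.39% of all genes), with a median of -0.39. The count was 3 without AdipoRon 2 and 2 without AdipoRon 1 or any AdipoRonPEG5 library. Per2, a repressor of the circadian clock, was at 68.2, 77.9 and 86.6 CPM with AdipoRon and 52.9, 44.8 and 48.6 CPM with AdipoRonPEG5 (-0.67 ± 0.111, adjusted p = 0.00932), and held in every alternative. Per3 was at -0.54 ± 0.0962 (adjusted p = 0.0121; 0.0531 without AdipoRonPEG5 3) and Nr1d2, which encodes REV-ERB beta, at -0.37 ± 0.0772 (adjusted p = 0.0228). Ciart, another clock repressor, was at 59.0, 32.9 and 36.2 CPM against 26.3, 18.6 and 22.6 CPM (-0.92 ± 0.208, adjusted p = 0.0296). The calls of Ciart and Nr1d2 ended without AdipoRon 1 or any AdipoRonPEG5 library, and that of Nr1d2 also without AdipoRon 2 (adjusted p from 0.0535 to 0.118 and from 0.0683 to 0.0792). The sources used here do not give the hour at which each liver was taken, and its part in these differences was not tested. The RefSeq sequence before the Ciart start (GRCm38.p6) is shown because it holds 3 copies of the E-box CACGTG, the site of the clock activators CLOCK and BMAL1, in capitals.
Ciart, chr3:95882252-95882478, minus strand: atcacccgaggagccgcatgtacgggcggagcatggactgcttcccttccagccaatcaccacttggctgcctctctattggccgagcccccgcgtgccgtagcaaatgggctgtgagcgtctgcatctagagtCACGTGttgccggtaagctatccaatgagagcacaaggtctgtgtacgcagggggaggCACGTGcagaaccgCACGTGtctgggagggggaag
The copies start at -116, -58 and -44. Of the 6 called clock genes, 5 were found in the table and 3 (Ciart, Per1 and Tef) hold CACGTG within 250 bases before a start. Of all promoters, counted singly, 6.02% do, while the 5 genes have 7 starts and count if any start matches. Clock genes that did not pass were not searched, so a link between these letters and the falls was not tested.

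Among cytosolic chaperones, 4 of 14 heat shock genes fell and 0 rose (28.6% called, beside 5.39% of all genes). The count of falls was 2 without vehicle 2 or any one of the 6 compared libraries. Hspa8, the constitutive HSC70, was at 1239, 1132 and 1173 CPM with AdipoRon and 719, 597 and 747 CPM with AdipoRonPEG5 (-0.78 ± 0.109, adjusted p = 0.00400), and Hsph1, its nucleotide exchange factor, fell by 0.73 (adjusted p = 0.0145). Both held in every alternative. Of 21 endoplasmic reticulum stress genes 1 fell (4.76%, near the 5.39% of all genes called), and 3 fell without vehicle 3 or AdipoRonPEG5 1. Herpud1, of the disposal of misfolded proteins, was at 955 CPM with vehicle, 616 CPM with AdipoRon and 361 CPM with AdipoRonPEG5 (-0.77 ± 0.162, adjusted p = 0.0228). AdipoRon was called below vehicle too (-0.63, adjusted p = 0.0479). The call between the compounds ended without AdipoRon 1, AdipoRon 3 or any AdipoRonPEG5 library (adjusted p from 0.0625 to 0.100).

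Major urinary proteins, which male mice secrete in large amounts and which growth hormone controls, spread widely. Of 18 tested, 1 rose, 6 fell and 11 did not pass, with a median of -1.18. The count of falls was 2 without AdipoRonPEG5 2 and 1 without AdipoRonPEG5 1 or AdipoRonPEG5 3. Mup19 was at 15.2, 29.0 and 23.2 CPM with AdipoRon and 5.06, 1.82 and 1.23 CPM with AdipoRonPEG5 (-3.07 ± 0.400, adjusted p = 0.00274). It held in every alternative and stood at -3.86 without AdipoRonPEG5 1. Mup9 was at 4.81, 36.8 and 8.13 CPM against 0.555, 0.311 and 0.678 CPM (-5.03 ± 1.04, adjusted p = 0.0219); it was -3.65 without AdipoRon 2, and its call ended without any one AdipoRonPEG5 library (adjusted p from 0.0721 to 0.0951) or with limma-voom or a robust prior (0.168 and 0.0956). Mup17 was at 198, 1155 and 300.2 CPM against 29.6, 74.1 and 22.9 CPM (-3.70 ± 0.770, adjusted p = 0.0222). It was -2.55 without AdipoRon 2 and -4.39 without AdipoRonPEG5 2, and its call ended without AdipoRonPEG5 1 or AdipoRonPEG5 3 (adjusted p = 0.0814 and 0.0888) and with a robust prior (0.100). Mup6 went the other way, from 10 counts over the AdipoRon group to 99 (3.18 ± 0.515, adjusted p = 0.00863; 4.28 without AdipoRon 1). The members are near copies of each other, so the assignment of reads to any one of them is uncertain. Bcl6, a repressor of growth hormone responsive genes, was the 1 gene called of 17 of that axis (5.88%, near the 5.39% of all genes called). It was at 103 to 113 CPM with vehicle, 52.1, 25.6 and 23.8 CPM with AdipoRon and 17.95, 13.9 and 12.1 CPM with AdipoRonPEG5 (-1.21 ± 0.264, adjusted p = 0.0264). AdipoRon had already lowered it (-1.66 against vehicle, adjusted p = 0.00590). Between the compounds the call ended without AdipoRonPEG5 2 or AdipoRonPEG5 3 (adjusted p = 0.102 for both) and with a robust prior (0.0870).

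Some genes of recruited monocytes rose. Of 18 genes of Kupffer cells, the resident macrophages of the liver, none passed, with a median of 0.24 and 15 of 18 intervals within 2-fold. Against vehicle, 15 were called with AdipoRonPEG5 and 14 with AdipoRon, beside 17.2% and 5.20% of all genes. The summed level of the list was 362 to 434 CPM with vehicle, 1094, 736 and 672 CPM with AdipoRon and 979, 1006 and 1015 CPM with AdipoRonPEG5, so the compound groups overlapped and both lay above vehicle. In bulk liver, more cells of a type and more RNA per cell cannot be told apart. Of 13 tested genes of recruited monocytes and lipid-associated macrophages, 5 rose and 0 fell, with a median of 1.05. The count was 3 without AdipoRon 1, AdipoRon 3 or AdipoRonPEG5 2. The summed level of this list was 67.93, 66.82 and 55.42 CPM with AdipoRon and 78.36, 88.14 and 67.82 CPM with AdipoRonPEG5. By that sum the compound groups overlapped here too, since AdipoRon 1 lay just above AdipoRonPEG5 3. Ccr2, the chemokine receptor of inflammatory monocytes, was at 1.23, 1.56 and 1.09 CPM with AdipoRon and 4.01, 3.37 and 3.51 CPM with AdipoRonPEG5 (1.47 ± 0.219, adjusted p = 0.00573). Lgals3, galectin-3, was at 7.90, 5.50 and 5.81 CPM against 13.8, 14.2 and 11.7 CPM (1.05 ± 0.180, adjusted p = 0.0102). Both held in every alternative. Mmp12, a macrophage elastase, had 9 counts over the AdipoRon group and 120 over the AdipoRonPEG5 group (3.59 ± 0.539, adjusted p = 0.00582; 4.47 without AdipoRon 2). Gpnmb, a marker of lipid-laden macrophages, rose by 2.72 (adjusted p = 0.0169), 3.47 without AdipoRon 2, and lost its call without AdipoRon 1, AdipoRon 3 or AdipoRonPEG5 2 (adjusted p between 0.0564 and 0.0716).

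The calls of MHC class II genes changed with the library left out. All 10 tested genes had positive differences, with a median of 1.29, but 1 passed: Ciita, the master activator of the class II genes, at 1.85, 0.9998 and 1.16 CPM with AdipoRon and 4.75, 2.54 and 2.90 CPM with AdipoRonPEG5 (1.34 ± 0.335, adjusted p = 0.0442). The summed level of the listed genes was 70.5 to 75.6 CPM with vehicle, 317, 81.3 and 105 CPM with AdipoRon and 392, 302 and 431 CPM with AdipoRonPEG5. AdipoRon 1 thus lay inside the AdipoRonPEG5 range and the other AdipoRon libraries near vehicle. Without AdipoRon 1, 8 of the 10 were called higher and the median was 2.11, and 6 were called with limma-voom. The call of Ciita ended without vehicle 2, AdipoRon 2, AdipoRon 3 or any AdipoRonPEG5 library (adjusted p from 0.0522 to 0.138). Calls among markers of other cells were 0 of 8 tested T and NK cell genes, 0 of 7 B cell genes, 0 of 18 stellate and matrix genes and 0 of 15 endothelial genes. Of 7 cholangiocyte genes 1 passed, Anxa4 (0.40 ± 0.0698, adjusted p = 0.0113). With 5.39% of all genes called, lists this short can hold no call, so these counts say little about the cells. Intervals lay within 1.5-fold for 1 T and NK cell, 0 B cell, 3 stellate and matrix and 6 endothelial genes. Of 2 tested gut epithelium genes 1 was lower, the fatty acid binding protein Fabp2 (-0.83 ± 0.151, adjusted p = 0.0138), which was lost without AdipoRonPEG5 2 or AdipoRonPEG5 3 (adjusted p up to 0.0596). The 1 tested gene of the exocrine pancreas, the elastase Cela1, was lower as well (-0.62 ± 0.152, adjusted p = 0.0423), and was lost without vehicle 2, AdipoRon 2, AdipoRon 3 or any AdipoRonPEG5 library (adjusted p up to 0.136); 8 of the 10 listed pancreas genes had 0 counts in the 6 libraries. Of 11 neutrophil genes 1 had enough counts to test, and Ly6g, Mpo and Mmp8 had 0 counts in the 6 libraries.

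Interferon genes changed in both directions. Of 28 tested, 2 rose, 3 fell and 23 did not pass, with a median of -0.01. The share called was 17.9%, beside 5.39% of all genes tested. The count of falls was 1 without AdipoRon 1 or AdipoRonPEG5 3 and 0 without AdipoRon 2, AdipoRonPEG5 1 or AdipoRonPEG5 2. The count of rises was 6 without AdipoRon 1, where the median was 0.37, 3 without AdipoRonPEG5 2, 2 without vehicle 3, and 1 without any other single library. Irgm1, an interferon-induced GTPase, rose by 0.60 (adjusted p = 0.0460), and its call ended without any single library other than vehicle 3 and AdipoRonPEG5 2 (adjusted p from 0.0523 to 0.152). Ubd, an inducible ubiquitin-like protein, was at 1.73, 0.111 and 0.957 CPM with AdipoRon and 8.39, 8.67 and 8.51 CPM with AdipoRonPEG5 (3.22 ± 0.542, adjusted p = 0.00985). Its call held in every alternative, with 4.08 without AdipoRon 1. The antiviral genes Mx2 (-0.76 ± 0.141, adjusted p = 0.0149) and Rsad2 (-0.62 ± 0.150, adjusted p = 0.0410) were lower with AdipoRonPEG5. Rsad2, which encodes viperin, was at 6.43 to 8.82 CPM with vehicle, 13.3, 12.2 and 10.2 CPM with AdipoRon and 8.27, 7.27 and 7.77 CPM with AdipoRonPEG5: AdipoRon was called above vehicle (0.66, adjusted p = 0.0320), and the PEGylated compound differed from vehicle by 0.04 on the log2 scale (adjusted p = 0.893). The call of Mx2 ended without AdipoRon 2, AdipoRonPEG5 1 or AdipoRonPEG5 2 (adjusted p between 0.0503 and 0.0599), and that of Rsad2 without AdipoRon 1, AdipoRon 2 or any AdipoRonPEG5 library (0.0806 to 0.139) or with the length trend removed. Psme1, a subunit of the immunoproteasome activator, rose by 0.68 (adjusted p = 0.00861), and Ctsd, the lysosomal protease cathepsin D, by 0.45 (adjusted p = 0.00932); both held in every alternative.

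**Figure D5:**
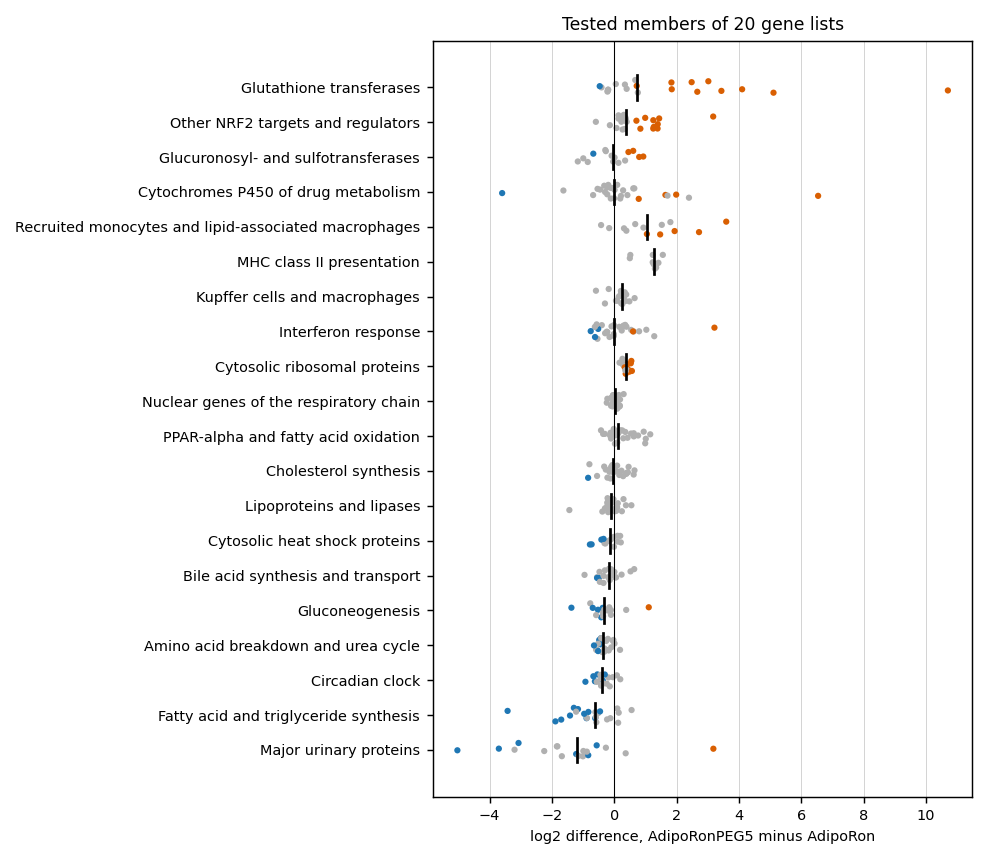
Differences of the tested members of 20 gene lists (x axis, log2 of AdipoRonPEG5 over AdipoRon; vertical scatter within a list has no meaning). Each point is a gene, orange if called higher, blue if called lower and grey if not called, and the black bar is the list's median, which runs from -1.18 for major urinary proteins to 1.29 for MHC class II.

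Genes of the pathways known to follow the adiponectin receptors are set beside the 5.39% called of all genes tested. The share called was 20% of receptor and adaptor genes and 11.8% of the AMPK and PGC-1 axis. It was 4.17% of ceramide and sphingolipid genes and 0% of PPAR-alpha and fatty acid oxidation genes. In lists this short, 1 call moves the share widely. Adipor2 was at 508, 472 and 505 CPM with AdipoRon and 383, 361 and 384 CPM with AdipoRonPEG5 (-0.40 ± 0.0833, adjusted p = 0.0228), which left 1 of 5 receptor and adaptor genes called; it was no longer called when AdipoRon 1, AdipoRon 3 or any AdipoRonPEG5 library was left out (adjusted p between 0.0622 and 0.100). The levels of Adipor1 were 103, 89.1 and 89.9 CPM against 93.2, 99.7 and 119 CPM, with an interval of -0.08 to 0.36 around a difference of 0.14 (adjusted p = 0.449). Of 29 genes of PPAR-alpha and fatty acid oxidation none passed, and 20 had intervals within 2-fold. Pdk4, which spares glucose in fasting, had the lowest p among them, at 1.84 ± 0.971 CPM (SD, n = 3) with AdipoRon and 4.10 ± 1.06 CPM with AdipoRonPEG5 (1.16, 95% confidence interval 0.41 to 1.91, adjusted p = 0.0766). Of 17 genes of the AMPK and PGC-1 axis, the coactivator Ppargc1b was lower (-1.05 ± 0.232, adjusted p = 0.0271) and the mitochondrial carrier Ucp2 higher (0.85 ± 0.200, adjusted p = 0.0362). Ppargc1b was lost without AdipoRon 1, AdipoRon 2 or any AdipoRonPEG5 library and Ucp2 without AdipoRon 2, AdipoRon 3 or any AdipoRonPEG5 library (adjusted p from 0.0700 to 0.0955 and from 0.0731 to 0.125). Of 24 ceramide and sphingolipid genes, 1 passed. Asah1, the lysosomal acid ceramidase, was at 27.4, 24.7 and 24.3 CPM with AdipoRon and 35.7, 38.3 and 40.1 CPM with AdipoRonPEG5 (0.58 ± 0.0865, adjusted p = 0.00582) and held in every alternative, while AdipoRon differed from vehicle by 0.10 on the log2 scale (adjusted p = 0.545).

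All 20 tested cytosolic ribosomal protein genes had positive differences, 10 were called, and the median was 0.37. Rps19 was at 175, 187 and 176 CPM with AdipoRon and 274, 252 and 269.5 CPM with AdipoRonPEG5 (0.57 ± 0.0796, adjusted p = 0.00424), with vehicle between them at 206 to 238 CPM. Ribosomal protein genes are short, and with the length trend removed 3 of the 20 were called and the median was 0.29. Between 2 and 17 were called when each library was left out in turn: 17 without vehicle 3, 5 without vehicle 2, 2 without AdipoRon 1, AdipoRonPEG5 1 or AdipoRonPEG5 3, and 3 without AdipoRon 3 or AdipoRonPEG5 2. The call of Rps19 held throughout. Of 32 nuclear genes of the respiratory chain none was called, and all 32 had intervals within 1.5-fold of no difference.

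Among the other large differences were falls in genes of low level. Mycn, a Myc family transcription factor, was at 4.94, 4.33 and 6.15 CPM with AdipoRon and 1.67, 1.09 and 1.23 CPM with AdipoRonPEG5 (-1.95 ± 0.263, adjusted p = 0.00347). Spry4, an inhibitor of receptor tyrosine kinase signalling, was at 27.1, 15.2 and 13.3 CPM against 7.40, 7.27 and 4.69 CPM (-1.52 ± 0.262, adjusted p = 0.0104). Aatk, a kinase gene, was at 21.2, 15.8 and 23.9 CPM against 7.59, 8.41 and 5.92 CPM (-1.47 ± 0.180, adjusted p = 0.00206). In these 3 genes AdipoRon lay at the vehicle level, with log2 values against vehicle of -0.03, -0.00 and 0.09. Gpr98, a very large adhesion receptor, was different: it was at 10.01 CPM with vehicle, 4.58 CPM with AdipoRon and 1.59 CPM with AdipoRonPEG5 (-1.51 ± 0.231, adjusted p = 0.00634), and AdipoRon was called below vehicle as well (-1.14, adjusted p = 0.0102). These 4 calls held in every alternative. Slc1a2, a glutamate transporter of pericentral hepatocytes, fell by 0.73 (adjusted p = 0.00261) and held likewise. Of the 15 pericentral genes tested, 2 were lower and 1, Cyp1a2, was higher, with a median of -0.05.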

How the data were processed

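RNA from mouse liver (TRIzol extraction) was sequenced in 9 libraries, 3 per group. The table deposited by the authors holds 35275 gene rows with raw read counts and FPKM per library. The submitters' processing notes name STAR 2.5, TopHat, HTSeq 0.6.1, DESeq2 and edgeR without roles, and the genome build and strand setting are not given in the sources used here. FPKM was used as deposited by the authors, to compare levels between genes only. Counts were fitted with edgeR 4.0.16 in R 4.3.3 (TMM scaling, filterByExpr, quasi-likelihood test, 3 group means over 9 libraries), with Benjamini-Hochberg adjustment over 13151 genes at 0.05. Standard errors and 95% intervals come from the F statistic of that fit. Counting intervals and the floor of 3 counts cover counting error only. The members and the 51 gene lists (869 genes, 771 tested) were chosen with earlier results of these data known. Genes that could be named were the 12 largest rises and falls with a mean of at least 1 CPM and no overlap, up to 4 called members of each list by p (otherwise the 1 with the lowest p), Adipor1 and Adipor2; other names, such as Per1, Tef and genes at 0 counts, were chosen after their values were seen. Some genes the rule allows are not reported here. Promoters come from RefSeq (GRCm38.p6). On simulated data with 12995 genes, 43.3%, 86.6% and 98.5% of changes of 1.5, 2 and 4-fold were recovered, and 5.00% of calls were false. The simulation drew independent counts from the fitted spread, with changed genes above 1 CPM and no length trend or deviating library. Its share of false calls is therefore not a measure of that share among the calls reported here. Alternatives were RLE and total-count scaling, other filters, DESeq2 1.42.0, limma-voom 3.58.1, a robust prior, the 6 libraries alone, a replicate block and leaving out each library; removing the length trend, and leaving out vehicle 3 with AdipoRonPEG5 1, were added after seeing the data.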

Additional observations from a re-analysis of the deposited data

How the results depend on the processing

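The 352 higher and 357 lower genes became 190 and 148 with the replicate number as a block. The labels do not say that equal numbers mark a shared litter or day, and the correlations of same-numbered AdipoRon and AdipoRonPEG5 libraries around their group means were -0.0288, 0.07 and -0.0428, so the numbers were not used as pairs. Leaving out 1 library at a time gave 135 to 551 higher genes and 98 to 481 lower genes, the smallest counts without AdipoRonPEG5 2 and the largest without vehicle 3. Other scalings, filters and tools gave 343 to 508 higher and 331 to 500 lower genes, all within 1.5 times the reported counts. The share of calls that were higher ran from 47.4% to 58.0%. Each alternative was fitted to all genes that passed its filter. The tally that follows covers the genes named by the rule, not the other genes named after their values were seen. None of the tallied genes changed sign: under the alternatives 1920 values kept their side of the threshold, 278 were lost and 30 gained. Counts for the lists that moved by over 1.5 times are given beside most of those lists. With 3 libraries per group the median 95% interval of a gene reached 0.31 (log2) to either side, so small differences were often not detectable.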
